A study of Mus musculus with 12 samples.

Results

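The 10 genes described here carry vitamin D metabolism and response. Of the 28244 genes listed in the data they are the hydroxylase genes Cyp2r1, Cyp27a1, Cyp27b1 and Cyp24a1, the receptor gene Vdr, its partner genes Rxra, Rxrb and Rxrg, and the calcium transport genes Trpv6 and S100g. They were chosen by function, with the rise of Cyp24a1 from D7 to D28 already known, so that D28 vs D7 is given below as a description with no test, and so is every comparison of Cyp24a1 with D28. All 10 were measured and all 10 passed the filter on low values (1 or more on the log2 scale in 3 or more libraries), which left 17674 genes for testing.

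RNA was sequenced from pellets of mesenchymal progenitors of C57/BL6 mice, taken at 5 or 6 days of age from the cartilage of the heads and condyles of femurs and tibiae. Every pellet first spent 7 days in chondrogenic medium, and the groups D7, D8, D10 and D28 were harvested after 0, 1, 3 and 21 further days in osteogenic medium, with 3 libraries each (12 in all). The libraries used here hold no pellet kept in chondrogenic medium beyond D7, so medium and age of the pellet cannot be told apart. The labels do not say whether the replicates came from separate pups or cultures, so the p-values measure only the spread between these libraries, which may be technical. Whether either commercial medium held a vitamin D compound is not given in the sources used here.

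Vitamin D acts as a hormone once it has been hydroxylated in sequence. Cyp2r1 and Cyp27a1 encode enzymes that make the circulating form, Cyp27b1 the enzyme that makes the active hormone calcitriol, and Cyp24a1 the enzyme that starts its breakdown. Calcitriol binds the vitamin D receptor, which pairs with a retinoid X receptor (RXR) on DNA, and Cyp24a1 is a classical target of that pair, as are the gene of the epithelial calcium channel Trpv6 and S100g, which encodes a small calcium-binding protein of the intestine. In the growth plate and in bone the receptor is found in chondrocytes and osteoblasts.

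Values are given as deposited, as the log2 of the equalized read count plus 1. All libraries share the same highest value, so the libraries were brought to nearly the same distribution and the read totals are not kept. Depth was read from the lowest levels instead. Relative depth ran from 1.20 to 1.31 at D28 and from 0.730 to 1.22 in the other libraries, and a single read was worth 0.50 to 1.81 on the log2 scale. A value of up to 3 reads, at most 2.87 on the log2 scale, was taken as the floor, and such values carry counting error at the least. Fold changes, their standard errors (SE) and adjusted p-values come from limma, fitted over all 12 libraries with Benjamini-Hochberg adjustment over the 17674 genes. A gene was called higher or lower where the log2 fold change reached 1 in size and the adjusted p was under 0.05.

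Genes of cartilage were highly expressed in every library. The summed level of 6 chondrocyte markers lay between 20.1 and 21.3 on the log2 scale, and that of 6 osteoblast markers between 16.7 and 19.1. Endothelial markers (4 genes, 3.26 to 7.48) and epithelial markers (5 genes, 5.68 to 8.67) were low, and epithelium is the tissue in which Trpv6 and S100g are best known. At D28 the epithelial sum (5.68 to 7.71) was of similar size to S100g itself (6.34 to 7.32). A source of either gene in epithelial cells was not tested. Adipocyte markers (5 genes) had summed levels of 11.9 to 12.1 at D7, 10.7 to 11.2 at D8, 9.71 to 10.4 at D10 and 15.3 to 15.7 at D28. In pellets measured in bulk, fewer cells of a type and less RNA per cell cannot be told apart.

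**Figure D1:**
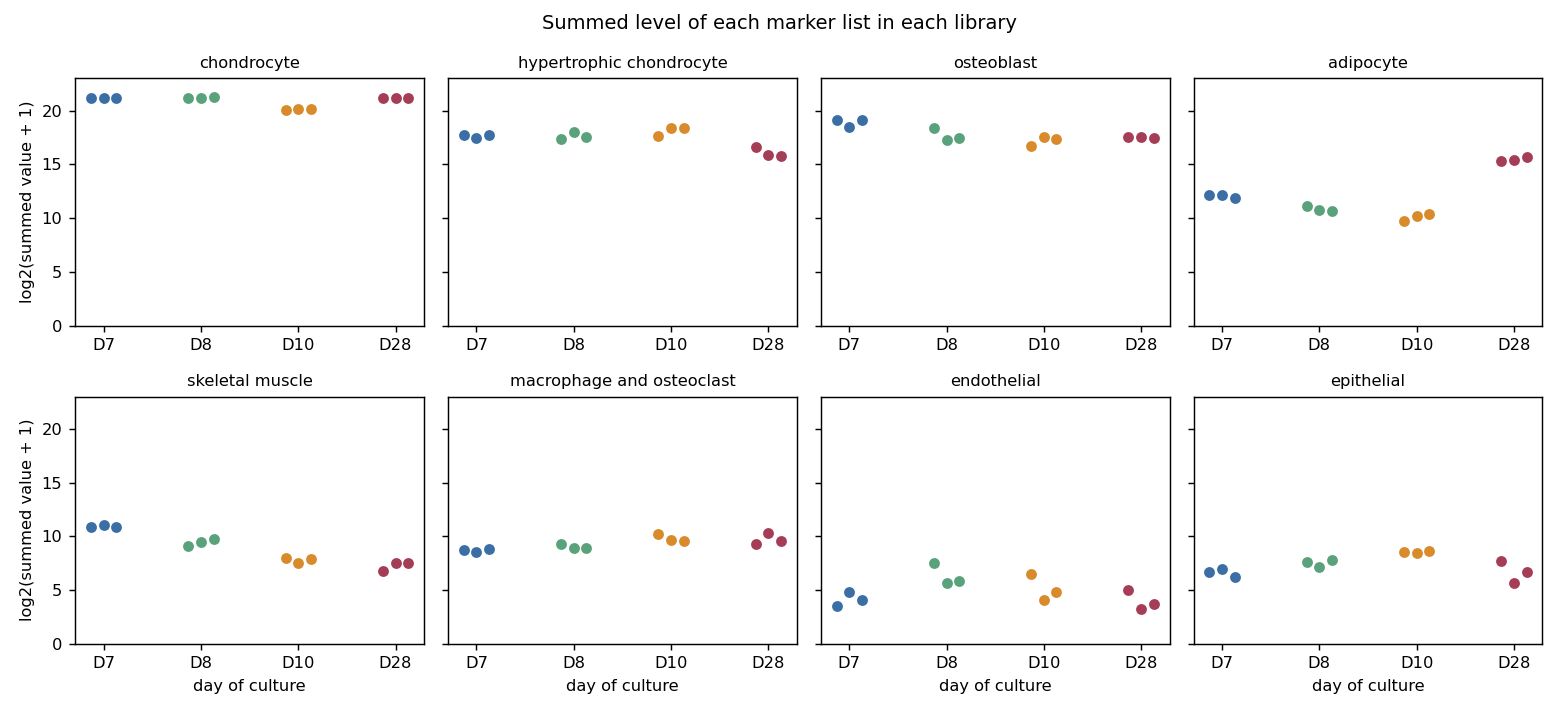
Summed level of each marker list (vertical axis, log2 of the summed unlogged values plus 1) in each library at D7, D8, D10 and D28 (horizontal axis), 1 dot per library. Chondrocyte markers stay above 20 in all libraries, while adipocyte markers are lowest at D10 (9.71 to 10.4) and highest at D28 (15.3 to 15.7).

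Cyp24a1, the gene of the enzyme that starts the breakdown of calcitriol, was all but absent until D10 and abundant at D28. It was listed at 0 in all 3 D7 libraries. At D8 it was at 0 in replicates 1 and 2 and at 1.87 (3 reads) in replicate 3, and at D10 it was at 2.44 (2 reads) in replicate 1 and at 0 in replicates 2 and 3. At D28 it reached 14.09, 13.61 and 12.89. The 9 earlier libraries were thus all at or under the floor and the 3 D28 libraries far above it, with a mean of 13.53 ± 0.61 (SD, n = 3). Against each earlier time point the level at D28 was at least 1611-fold higher, computed with every value under the floor raised to the floor. Divided by the summed length of its exons, Cyp24a1 ranked 222, 288 and 446 among 27841 genes in the 3 D28 libraries.

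Cyp24a1 passed the filter on low values only through its 3 D28 libraries. With all earlier libraries at or under the floor, a difference among D7, D8 and D10 could not be read at this depth. The gene lies on the minus strand of chr2:170482708-170497145 in GRCm38 and shares 83 exon bases with Pfdn4 on the opposite strand. Pfdn4 stood between 8.89 and 9.82 in all 12 libraries, including the 7 in which Cyp24a1 was at 0.

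**Figure D2:**
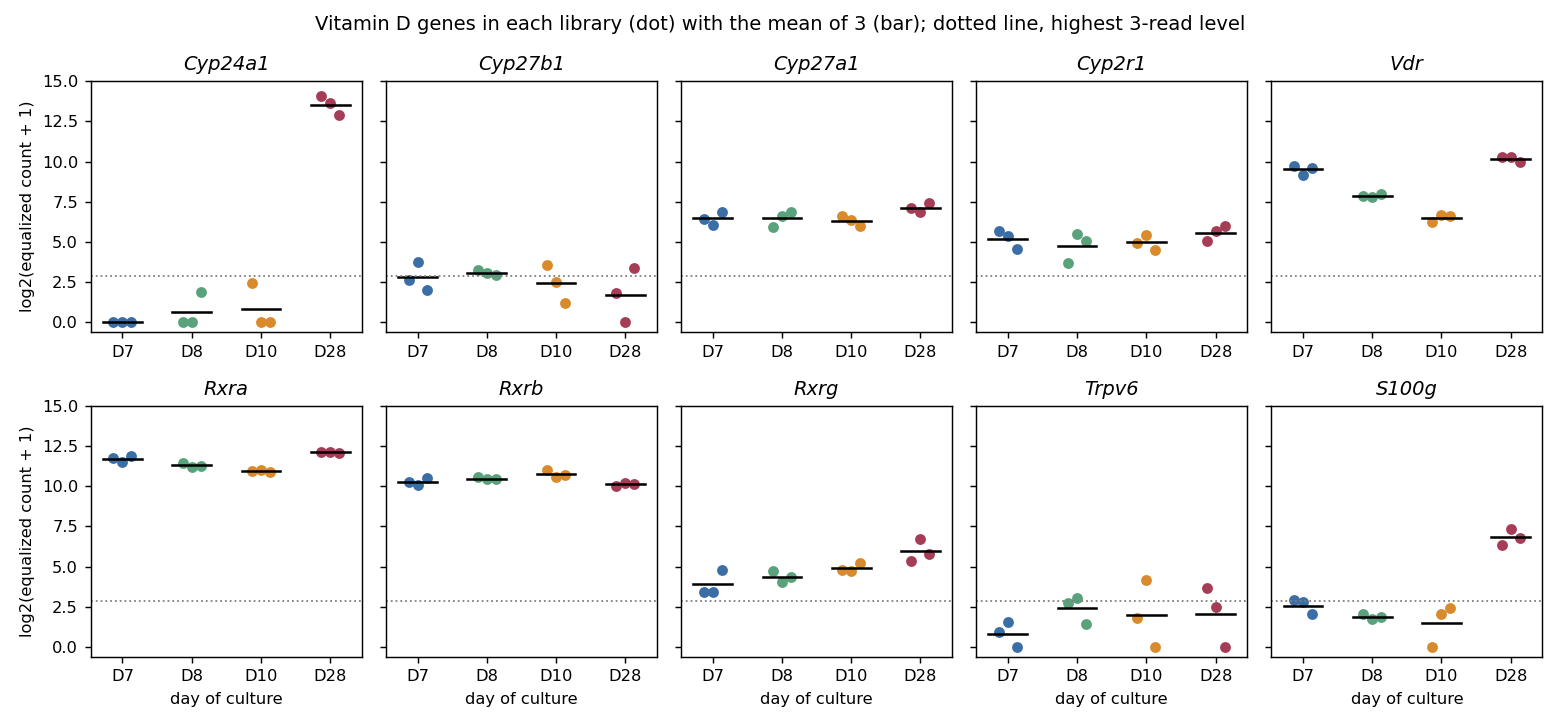
Log2 of the equalized count plus 1 (vertical axis) for each of the 10 vitamin D genes at D7, D8, D10 and D28 (horizontal axis). Dots are the 3 libraries of a time point, bars their mean, and the dotted line the highest 3-read level, 2.87. Cyp24a1 and S100g rise above that line at every D28 library, and Vdr is lowest at D10.

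The hydroxylase genes that make calcitriol showed no call in any comparison. Cyp27b1, which encodes the activating enzyme and lies at chr10:127048250-127053006, was close to the floor throughout. Its values were 2.66, 3.73 and 2.03 at D7 (5, 13 and 2 reads), 3.29, 3.06 and 2.92 at D8 (8, 6 and 7 reads), 3.54, 2.50 and 1.22 at D10 (5, 3 and 1 reads) and 1.81, 0 and 3.37 at D28 (4, 0 and 15 reads). The ranges of all 4 time points overlap. At D28 the gene of the inactivating enzyme was abundant, while that of the activating one was read at most 15 times in a library. For D28 vs D10 the log2 fold change of Cyp27b1 was -0.70 (limma adjusted p = 0.476), which at this depth leaves a change of either sign within the error.

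Cyp27a1, whose mitochondrial enzyme also acts on bile acid precursors, was expressed at moderate level (chr1:74713574-74737892). Its means at the successive time points were 6.47 ± 0.41, 6.47 ± 0.47, 6.33 ± 0.32 and 7.13 ± 0.29 (SD, n = 3 each). The D28 libraries, 7.10, 6.86 and 7.44, all lay above those of D10, 6.64, 6.37 and 6.00. This difference of 0.80 had a limma adjusted p of 0.0286 but stayed under the fold threshold. It was 0.63 without D10 replicate 3 (limma adjusted p = 0.116) and 0.64 without D28 replicate 3 (adjusted p = 0.117). The first 3 time points do not differ beyond their spread.

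Cyp2r1, the gene of the microsomal enzyme held to be the main maker of the circulating form, was lower still (chr7:114549682-114562972). From D7 to D28 its means were 5.21 ± 0.58, 4.76 ± 0.93, 4.97 ± 0.49 and 5.58 ± 0.48 (SD, n = 3 each), and the ranges of all time points overlap. The largest of its 4 tested differences, 0.60 for D28 vs D10, had a limma adjusted p of 0.292. Per kilobase of exon the order at D28 was Cyp24a1 (11.70 ± 0.61), then Cyp27a1 (6.02 ± 0.29), Cyp2r1 (4.53 ± 0.46) and Cyp27b1 (1.06 ± 1.11), on the log2 scale.

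Vdr, the gene of the receptor itself, fell after the switch to osteogenic medium and was high again at D28. Its values were 9.71, 9.19 and 9.61 at D7, 7.88, 7.77 and 7.98 at D8, 6.22, 6.66 and 6.60 at D10, and 10.27, 10.30 and 9.96 at D28. No library of any time point overlaps with those of another, and the order is D28, D7, D8 and D10 from high to low. Within 1 day Vdr fell by 1.63 on the log2 scale (SE 0.17, limma adjusted p = 1.13e-05), a 3.09-fold difference. From D8 to D10 it fell by a further 1.38 (adjusted p = 3.70e-05), so that D10 lay 8.06-fold under D7 (adjusted p = 3.53e-09). From D10 to D28 it rose by 3.68 (adjusted p = 1.21e-10), or 12.8-fold. At D28 the mean, 10.18 ± 0.19, lay 0.67 above that of D7, 9.51 ± 0.28, a 1.59-fold difference given as a description.

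Vdr was the one vitamin D gene called in the first 3 of these comparisons. For D8 vs D7 that is 0 genes higher and 1 lower of 10, where 3.23% of all tested genes were called higher and 3.81% lower. For D10 vs D8 it is again 0 higher and 1 lower, with 4.08% and 5.58% of all genes, and for D10 vs D7 also 0 and 1, with 8.50% and 10.4%. For D28 vs D10 Vdr, Rxra and S100g were called higher and none lower among the 9 genes tested, where 13.8% of all genes were called higher and 13.7% lower. The median log2 fold change over all tested genes was 0.026, 0 and 0.053 in the earlier comparisons and -0.10 for D28 vs D10.

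**Figure D3:**
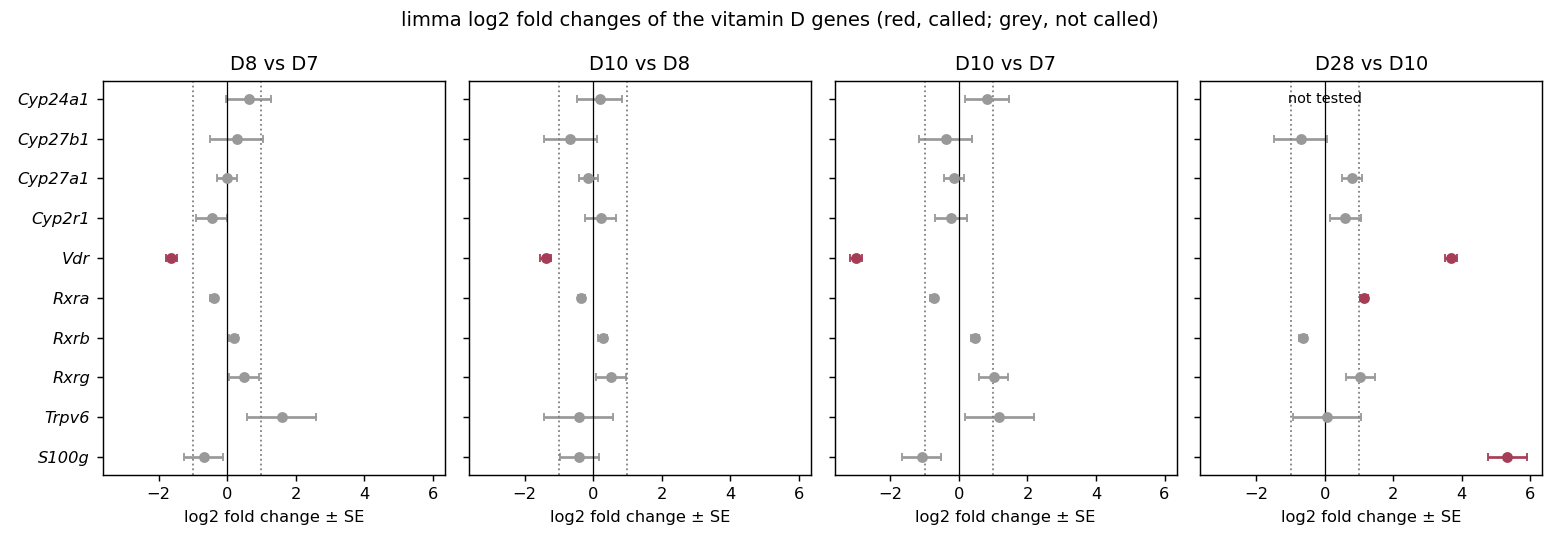
Log2 fold changes from limma with their standard errors (horizontal axis) for the vitamin D genes (vertical axis) in 4 comparisons of time points. Red dots passed both the fold threshold (dotted lines) and the adjusted p. Vdr is red in all 4 panels, to the left in the first 3 (D10 vs D7, -3.01) and to the right for D28 vs D10 (3.68), where S100g (5.33) and Rxra (1.14) are red as well.

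Markers of several cell types moved in the comparisons in which Vdr did. For D8 vs D7, 0 of 6 chondrocyte, 2 of 4 hypertrophic chondrocyte, 3 of 6 osteoblast, 4 of 5 adipocyte and 3 of 5 skeletal muscle markers were called lower, and Bglap (osteoblast) and Kdr and Pecam1 (endothelial) higher. For D10 vs D8, 4 of 6, 1 of 4, 3 of 6, 2 of 5 and 4 of 5 markers of the same lists were called lower, as were Cdh5 (endothelial) and Epcam (epithelial), with Krt18 (epithelial) higher. For D10 vs D7, 4 of 6 chondrocyte markers, 3 of 4 hypertrophic chondrocyte markers, 4 of 6 osteoblast markers, 5 of 5 adipocyte markers and 4 of 5 skeletal muscle markers were called lower. For D28 vs D10, 3 of 6, 3 of 4, 4 of 6 and 5 of 5 of the first 4 lists were called higher, and 0 of 5 muscle markers were. Other calls ran against these or lay in other lists. For D10 vs D7 the osteoblast marker Bglap and the markers Cd68 (macrophage), Kdr (endothelial) and Krt18 (epithelial) were called higher and Adgre1 (macrophage) lower. For D28 vs D10 Col10a1 (hypertrophic), Actn2 and Myh3 (muscle), Cd68, and Cdh1 and Krt18 were called lower, and Adgre1 and Csf1r (macrophage) higher. These counts stand beside the shares of all tested genes given above for each comparison. The summed chondrocyte level was 21.2 at D7, 20.1 at D10 and 21.2 at D28 in all libraries, and the summed hypertrophic level 17.5 to 17.8, 17.7 to 18.4 and 15.8 to 16.6. The chondrocyte sums lie near the highest value shared by all libraries, so their course is uncertain. The summed osteoblast level was 18.5 to 19.1, 16.7 to 17.6 and 17.4 to 17.6. A sum of unlogged values follows the most abundant genes of its list and can move against most of its markers. The hypertrophic sum did so for D28 vs D10, where it was lower although 3 of 4 markers were called higher. Muscle markers fell from 10.8 to 11.1 at D7 to 7.49 to 7.97 at D10 and stood at 6.73 to 7.48 at D28. Of the adipocyte markers, Lep was at 0 in all D10 libraries. The part of these cell types in the course of Vdr was not tested.

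Because Vdr and S100g had the largest changes called for D28 vs D10 among the vitamin D genes, the 250 bases before their RefSeq transcription start are shown (GRCm38.p6, both on the minus strand and written 5′ to 3′ toward the gene). The windows are chr15:97908297-97908546 for Vdr, which lies inside the longer GENCODE span of the gene at chr15:97854425-97910630, and chrX:162964600-162964849 for S100g. Capitals mark matches on either strand to the half-sites AGGTCA and AGTTCA, of which a pair forms the classical vitamin D response element, and to the GC box GGGCGG.
Vdr: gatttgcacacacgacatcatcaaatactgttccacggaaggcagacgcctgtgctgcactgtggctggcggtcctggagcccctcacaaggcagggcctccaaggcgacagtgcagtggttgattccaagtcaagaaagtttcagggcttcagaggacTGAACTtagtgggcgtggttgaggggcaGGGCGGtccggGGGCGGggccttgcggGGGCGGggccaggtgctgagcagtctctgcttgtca
S100g: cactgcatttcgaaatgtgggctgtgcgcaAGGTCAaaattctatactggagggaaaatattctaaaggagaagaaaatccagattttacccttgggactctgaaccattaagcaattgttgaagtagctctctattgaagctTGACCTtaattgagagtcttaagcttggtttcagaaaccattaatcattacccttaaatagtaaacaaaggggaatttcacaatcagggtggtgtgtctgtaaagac

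The Vdr window holds 3 GC boxes, at -63 to -58, -52 to -47 and -36 to -31 from the start, and 1 AGTTCA half-site on the opposite strand at -91 to -86. The S100g window holds no GC box and the AGGTCA half-site in both orientations, at -220 to -215 and, on the opposite strand, at -107 to -102. These letters are common. Of 32851 RefSeq windows of this length 14.0% hold AGGTCA, 11.8% AGTTCA and 32.7% the GC box. RefSeq windows were matched for 9 of the 10 genes, all but Cyp24a1 (12 windows), and AGGTCA was found at Rxra, Rxrg, S100g and Trpv6, AGTTCA at Cyp27a1, Rxrg and Vdr, and the GC box at Cyp27a1, Rxra, Rxrb and Vdr. A pair of these exact half-sites on the same strand with 3 bases between them was in 0 of these 12 windows, which do not include Cyp24a1. It was in 4 of all 32851 (0.0122%). Half-sites with other letters were not searched for, so the counts do not cover every form of the element. The matches describe the sequence and are not evidence of binding.

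The RXR genes encode the partners without which the receptor binds its elements poorly, and they are shared with many other nuclear receptors. Rxra, at chr2:27676440-27762957, took the same course as Vdr over a much smaller range. Its values were 11.73, 11.48 and 11.89 at D7, 11.46, 11.19 and 11.25 at D8, 10.97, 11.0 and 10.90 at D10, and 12.09, 12.10 and 12.09 at D28. The libraries of each time point are apart from those of every other, in the order D28, D7, D8 and D10. The log2 fold changes of -0.40 in the first day (SE 0.11, limma adjusted p = 0.0168) and -0.74 by D10 (adjusted p = 6.36e-05) stayed under the fold threshold, and the rise of 1.14 from D10 to D28 was called (adjusted p = 4.49e-07).

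Rxrb, at chr17:34031812-34038399, ran the other way. Its values were 10.28, 10.09 and 10.49 at D7, 10.54, 10.46 and 10.42 at D8, 11.0, 10.57 and 10.69 at D10, and 10.00, 10.21 and 10.13 at D28. The D10 libraries lay above those of every other time point, and the D7 libraries overlap with those of D8 and of D28. The log2 difference was 0.47 for D10 vs D7 (limma adjusted p = 0.00718) and -0.64 for D28 vs D10 (adjusted p = 0.000494), and neither reached the fold threshold.

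Rxrg, the partner gene best known from muscle and brain, was low (chr1:167598384-167639623). It was read 9, 10 and 20 times at D7 (3.45, 3.45 and 4.79), 24, 13 and 21 times at D8 (4.74, 4.07 and 4.35) and 13, 17 and 26 times at D10 (4.77, 4.74 and 5.20). At D28 it stood at 5.36, 6.70 and 5.77, above all earlier libraries. No comparison was called as fitted. D28 vs D10 gave a log2 fold change of 1.04 (limma adjusted p = 0.0554), which passed the threshold in 6 of the 23 settings fitted, and D10 vs D7 gave 1.01 (adjusted p = 0.0748), which passed without D7 replicate 3 (1.46, adjusted p = 0.0148).

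Per kilobase of exon, the makeup of the RXR transcripts changed with time. Rxra made up 65.0% to 66.3% of their summed level at D7, 54.1% to 57.1% at D8, 41.1% to 48.8% at D10 and 70.1% to 74.4% at D28. Rxrb made up 33.2% to 34.3%, 41.6% to 45.0%, 49.8% to 57.6% and 24.0% to 26.0%. Per kilobase Rxrb exceeded Rxra in each D10 library, though in replicate 2 by 49.8% to 48.8% only, and Rxra exceeded Rxrb in each library of the other time points. The order at D10 depends on the division by length, since in the values as deposited Rxra was the higher in replicates 2 and 3. Rxrg was never above 3.91%.

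Receptor transcripts were scarcer than partner transcripts in every library. The log2 ratio of Vdr to the summed RXR level per kilobase was -2.66, -2.95 and -2.95 at D7, -4.44, -4.36 and -4.17 at D8, -6.10, -5.44 and -5.53 at D10, and -2.30, -2.36 and -2.65 at D28. The ratio was lowest in the D10 libraries, and the highest D7 value lies just under the lowest D28 value.

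**Figure D4:**
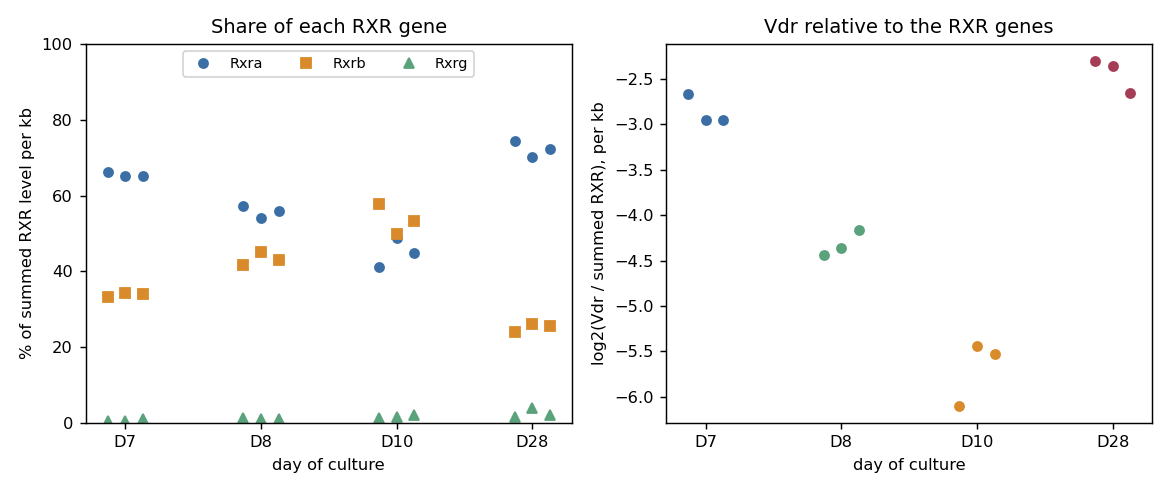
Left, the percent of the summed RXR level per kilobase held by Rxra, Rxrb and Rxrg (vertical axis) in each library at each time point (horizontal axis). Right, the log2 ratio of Vdr to the summed RXR level per kilobase. Per kilobase Rxrb exceeds Rxra only in the 3 D10 libraries, narrowly in replicate 2 (49.8% and 48.8%), where the ratio of Vdr to RXR is also lowest (-6.10 to -5.44).

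S100g, the gene of the intestinal calcium-binding protein, was near the floor until D10 and clearly expressed at D28 (chrX:162961992-162964599). It was at 2.91, 2.79 and 2.03 at D7 (6, 6 and 2 reads), 2.03, 1.77 and 1.87 at D8 (3, 2 and 3 reads) and 0, 2.03 and 2.44 at D10 (0, 2 and 3 reads). At D28 it stood at 6.34, 7.32 and 6.79, apart from all earlier libraries. The rise from D10 to D28 was called (log2 fold change 5.33, limma adjusted p = 1.44e-06), and since all D8 and D10 libraries were at or under the floor it is better read as at least 15.4-fold. Among the first 3 time points the differences, -0.68 for D8 vs D7 (SE 0.57) and -1.09 for D10 vs D7, had adjusted p-values of 0.446 and 0.146. The gene spans 480 exon bases and overlaps the opposite-strand gene Ctps2 with 0 shared exon bases, and Ctps2 stood between 9.15 and 10.16 in all libraries.

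Trpv6, the gene of the calcium entry channel of the intestine, was read few times and unevenly (chr6:41620624-41636405). Its values were 0.94, 1.54 and 0 at D7 (1, 2 and 0 reads), 2.73, 3.06 and 1.46 at D8 (5, 6 and 2 reads), 1.81, 4.19 and 0 at D10 (1, 11 and 0 reads) and 3.70, 2.48 and 0 at D28 (19, 7 and 0 reads). Its ranges overlap at all time points, and 1 library at each of D7, D10 and D28 had no read of it. The log2 fold change was 1.59 for D8 vs D7 (SE 1.00, limma adjusted p = 0.295) and 0.061 for D28 vs D10 (adjusted p = 0.968).

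From D7 to D28, the comparison that drew attention to these genes, the libraries of both time points were apart for 5 of the 10, namely Cyp24a1, Vdr, Rxra, Rxrg and S100g, all higher at D28. Over all tested genes 46.9% were apart in this sense, and nothing is read from the count. The log2 differences were 13.53 for Cyp24a1 (at 0 at D7, so better read as at least 1611-fold), 4.24 for S100g, 2.05 for Rxrg, 0.67 for Vdr and 0.40 for Rxra. For the other 5 they ran from -1.08 (Cyp27b1) to 1.23 (Trpv6), with overlapping ranges. Both of these genes were near the floor and at 0 in a D28 library, so their values are uncertain. For Trpv6 the difference is a bound of at least 1.21-fold.

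The genes whose course was most like that of Cyp24a1 over the 12 libraries were Bhmt (Pearson r = 0.990), Ppy (0.990), AC124430.1 (0.990), Apoc3 (0.989) and Syt13 (0.989). The first 4 were at 0 in all libraries before D28, with D28 means of 8.65, 10.4, 4.16 and 8.79, and Syt13 rose from 3.54 at D7 to 8.35 at D28. Bhmt and Apoc3 are known as liver genes and Ppy as a pancreatic hormone gene. The genes most like Vdr were Trp63 (0.995), Ptpn13 (0.994), Mylk (0.992), Fxyd1 (0.992) and Abat (0.991). Trp63, a transcription factor gene of stratified epithelia, stood at means of 6.49, 4.86, 3.39 and 6.98 at D7, D8, D10 and D28. These correlations describe 12 libraries that share 4 time points.

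Around the 10 genes, 66 further genes of the pathway were followed in 6 lists, of which 54 could be tested. For D8 vs D7, 5 were called higher and 3 lower, for D10 vs D8 3 and 4, for D10 vs D7 8 and 6, and for D28 vs D10 14 and 3. The shares of all tested genes called higher and lower in the same order of comparisons were 3.23% and 3.81%, 4.08% and 5.58%, 8.50% and 10.4%, and 13.8% and 13.7%. Of the 54 pathway genes these counts make 9.26% and 5.56%, 5.56% and 7.41%, 14.8% and 11.1%, and 25.9% and 5.56%. The counts per list below are to be read against the same shares of all genes, and nothing is called particular to a list. In the supply and activation list (8 genes, 7 tested) none was called within the first day or from D8 to D10. Por, which passes electrons to microsomal P450 enzymes such as that of Cyp2r1, rose by D10 (1.18 vs D7, limma adjusted p = 2.19e-05, and 0.96 without D10 replicate 1, under the fold threshold). Dhcr7, whose enzyme draws on the precursor of vitamin D for cholesterol, rose from D10 to D28 (1.16, adjusted p = 6.77e-06), and Lrp2, the endocytic receptor for the vitamin D carrier protein, was called lower (-1.89, adjusted p = 0.0344). The call of Lrp2 rests on D28 replicate 2, which was at 0. Without it the difference was -0.80 (adjusted p = 0.184), and the call was also lost without any 1 of the 3 D10 libraries.

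The receptor cofactors, which include the coactivators Ncoa1 to Ncoa3 and Med1 and the corepressor Ncor1, showed no call. This held for each of the 8 genes in all 4 comparisons, and the list's median log2 fold change was -0.20, 0.17, -0.045 and -0.082 for D8 vs D7, D10 vs D8, D10 vs D7 and D28 vs D10. D28 vs D7 was not tested. Ncoa3 had means of 11.30, 10.85, 10.47 and 10.17 from D7 to D28, and its D28 libraries (at most 10.48) lay under those of D7 (at least 11.17). Pdia3 (14.25 and 13.87) and Baz1b (11.66 and 11.53) had higher means at D28 than at D7.

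Other receptors that pair with RXR (15 genes, 13 tested) changed in both directions. Nr1h4, the bile acid receptor, fell by 2.95 in the first day (limma adjusted p = 7.76e-05). All its D10 libraries were at or under the floor, so D10 is given as a bound, at least 14.7-fold lower than D7 (adjusted p = 5.00e-08) and with D28 at least 13.1-fold higher than D10 (adjusted p = 2.86e-08). Its means were 6.76 at D7, 3.81 at D8 and 6.59 at D28. Thyroid receptor genes diverged for D10 vs D7, with Thrb higher (1.09, adjusted p = 0.000153, and 0.97 without D7 replicate 3, under the fold threshold) and Thra lower (-1.09, adjusted p = 2.94e-06). Pparg, the main receptor of fat cell formation, rose from 6.57 at D10 to 10.11 at D28 (3.54, adjusted p = 1.60e-08) and Nr1h3 and Thra were higher as well, while Rarb was called lower (-1.25, adjusted p = 0.0491), a call lost in 11 of the 12 fits that leave out 1 library (-0.90 at the smallest, adjusted p = 0.189). The adipocyte markers rose over the same days (5 of 5), and their part in the rise of Pparg was not tested.

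Of the other calcium transport genes (12, of which 8 were tested), Atp2b4, a plasma membrane calcium pump, dipped with Vdr. It fell by 1.38 in the first day (limma adjusted p = 0.000379) and by 2.20 by D10 (adjusted p = 1.15e-06), and rose by 2.84 to D28 (adjusted p = 3.91e-08). Slc8a1, a sodium-calcium exchanger, rose from D8 to D10 (1.65, adjusted p = 5.79e-05) while the tight junction gene Cldn2 fell (-2.53, adjusted p = 0.000337). For D28 vs D10, Atp2b4, Calb2, Cldn2 and Stim1 were called higher and none lower, with Calb2 at or under the floor in all D10 libraries and not called once low values were raised to the floor. Stim1, the calcium sensor of the endoplasmic reticulum, rose by 2.31 (limma adjusted p = 1.88e-10). Trpv5, the renal relative of Trpv6, was at 0 in all libraries.

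The other vitamin D response genes (18, of which 16 were tested) did not move as one. Thbd, the thrombomodulin gene, rose by 1.95 in the first day (limma adjusted p = 2.07e-06) and by 3.00 by D10 (adjusted p = 3.53e-09), while Vdr fell. Bglap, the osteocalcin gene, rose by 2.72 in the first day (adjusted p = 0.000565) and by 3.25 by D10 (adjusted p = 3.53e-05), and Spp1, the osteopontin gene, by 1.05 from D8 to D10 (adjusted p = 0.0176, and 0.75 with adjusted p = 0.0858 without D8 replicate 3). Bglap has near-identical neighbouring copies among which reads may be split, so its level is uncertain. Spp1 stood at 18.92 in all 3 D10 libraries (SD 0), because equalized libraries share values at the top of the scale. Its D10 values thus hold no measured spread, and its fold change and adjusted p are uncertain. Tnfsf11, which encodes the osteoclast factor RANKL, took the course of Vdr, with log2 fold changes of -1.53 in the first day (adjusted p = 4.11e-05), -2.47 by D10 (adjusted p = 7.07e-08) and 3.46 from D10 to D28 (adjusted p = 6.89e-10). Its decoy receptor gene Tnfrsf11b ran the other way from D10 to D28 (-2.70, adjusted p = 1.60e-08). Igfbp3 rose by 4.23 over those days (adjusted p = 5.98e-09). For D28 vs D10 the list had 5 genes higher and 1 lower, and its median was 0.072.

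Among the endocrine regulators of the hydroxylases (7 genes, 3 tested), Pth1r, the receptor gene for parathyroid hormone and its related peptide and also a member of the response list, fell and rose. Its means over the time points were 13.17, 12.33, 10.31 and 12.40, with log2 fold changes of -2.86 from D7 to D10 (limma adjusted p = 8.37e-09) and 2.09 from D10 to D28 (adjusted p = 7.64e-08). Casr, the calcium-sensing receptor gene, was called higher at D8 than at D7 and lower at D10 than at D8, but it was at or under the floor in all D7 and D10 libraries and at most at 3.07 at D8. Neither call was made once low values were raised to the floor, so these differences cannot be read at this depth. Fgf23 and Kl, which encode the hormone that represses Cyp27b1 in the kidney and its co-receptor, were below the filter, and Pth and Calcr were at 0 in all libraries.

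**Figure D5:**
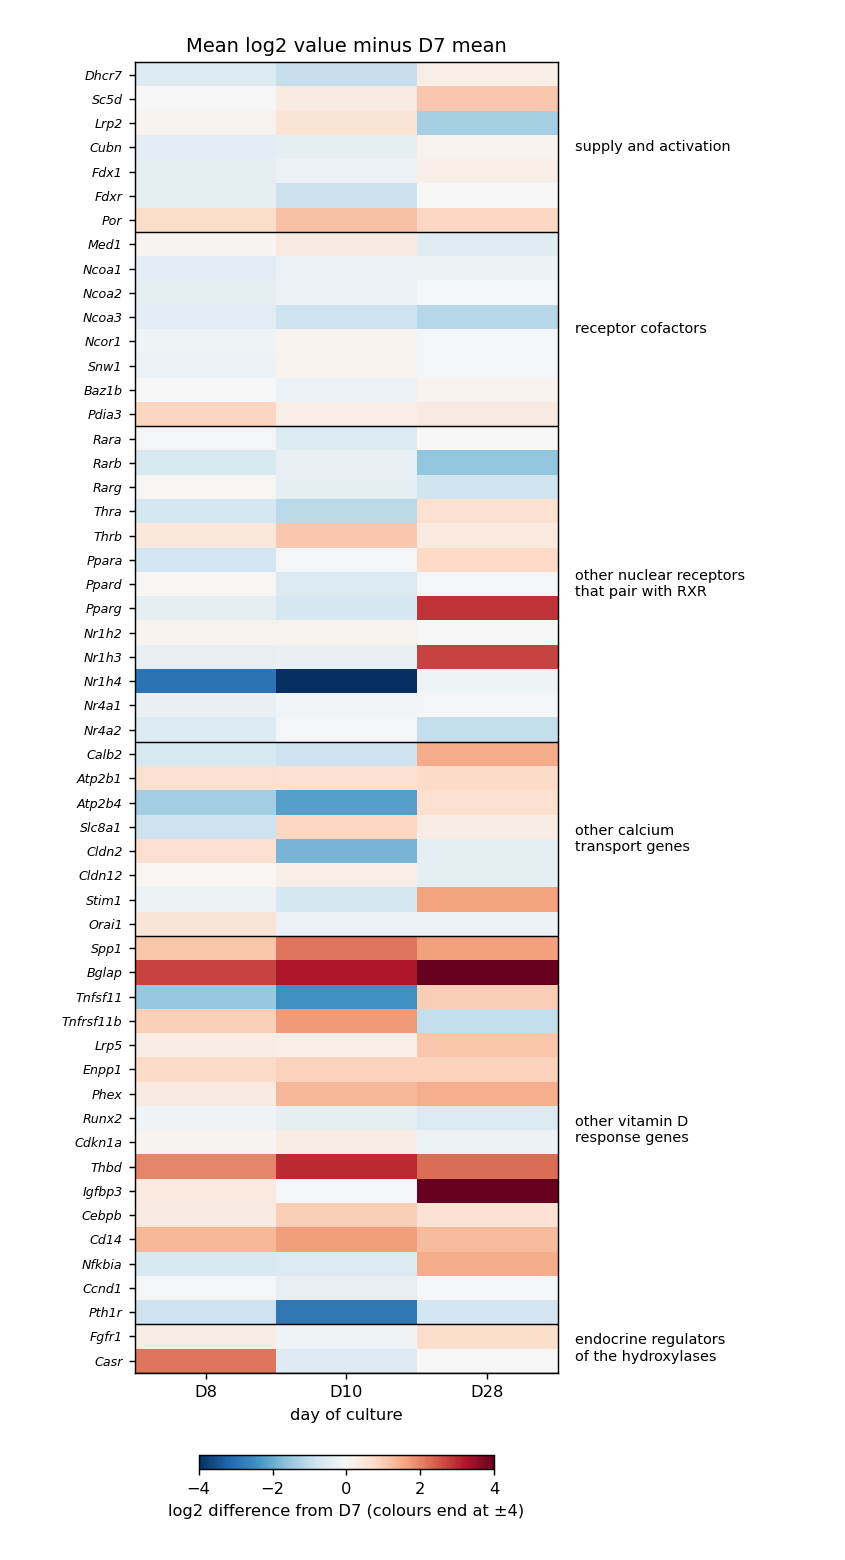
Mean log2 value at D8, D10 and D28 minus the D7 mean (colour, red higher and blue lower, ending at 4 in either direction) for the pathway genes that passed the filter (rows), grouped by list. Most receptor cofactors stay pale, while the mean of Ncoa3 was 10.17 at D28 and 11.30 at D7. Nr1h4 (at the floor at D10), Tnfsf11, Atp2b4 and Pth1r are blue at D10, and Pparg and Igfbp3 are red at D28.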

How the data were processed

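The 12 libraries were grouped by the time point in their labels. The authors deposited 1 table in the unit log2, the log2 of the equalized HTSeq count plus 1, with replicates kept apart. The submitters' processing notes name Trimmomatic 0.36, HISAT2, Cufflinks, HTSeq and GRCm38. The supplementary methods name hg38, while the table lists mouse symbols. The strand setting of the counting is not given in the sources used here. All columns matched a labelled library. The members and lists were chosen with earlier results of these data known. 1 gene of the lists is not reported here.

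Read counts of low values were taken from the order of distinct values in a library, and relative depth from 562 genes at 5 to 60 reads in every library. Depth limits values near the floor of 3 reads. Without molecular identifiers a read is not a molecule, so such levels cover counting error only. The limma model (limma 3.58.1, R 4.3.3, trend on mean expression, 1 coefficient per time point, no covariate) was tested on simulated data. The unit is a log value, so no count model was used. Named were all 10 genes and, per list and comparison, at most 2 called genes in each direction by size among those with more than 3 reads in every library of at least 1 group, plus the 5 genes most correlated with Cyp24a1 and with Vdr. Genes named beyond that, such as Casr or Nr1h3, are named as listed calls only. Positions and exon lengths are from GENCODE M21 (GRCm38), and promoter windows from RefSeq. Tables and figures used Python 3.11.15, pandas 2.3.3, numpy 2.4.6 and matplotlib 3.10.9. Alternatives were tried for the pseudocount, the low-value filter, the scaling, the floor, the fold threshold, the groups in the fit, the rule for calls (that of the study), a replicate block and each library left out. The authors' own comparisons were not used.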

Additional observations from a re-analysis of the deposited data

How the results depend on the processing

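Among the calls for single genes and the listed counts no direction of a called value reversed. Of the tested values for single genes 873 kept their side of the threshold, 13 passed it newly and 3 lost it. Of the D28 minus D7 differences, which have no test, 96 moved by less than the spread between replicates and 4 moved by more, and of the counts 180 stayed within 1.5 times and 14 did not. Of these 14 counts all but that without D7 replicate 3 come with the fold threshold, by construction. With no fold threshold the vitamin D genes called were 2 (Vdr and Rxra) for D8 vs D7, 2 for D10 vs D8, 3 for D10 vs D7 and 5 for D28 vs D10, against 1, 1, 1 and 3, and the pathway genes called 22, 24, 31 and 33, against 8, 7, 14 and 17. Of all genes tested 11.9%, 13.9%, 21.8% and 22.6% were then called higher and 9.09%, 15.0%, 19.4% and 29.8% lower. With a fold threshold of 2 on the log2 scale the vitamin D genes called were 0 for D8 vs D7 and 0 for D10 vs D8, where the log2 fold changes of Vdr are -1.63 and -1.38, and the pathway genes 3, 4 and 7 in the first 3 comparisons. Of all genes 1.05%, 0.945% and 2.80% were then called higher and 1.15%, 2.07% and 4.80% lower. Leaving out 1 library at a time, the vitamin D genes called ranged from 1 to 1 for D8 vs D7, from 1 to 1 for D10 vs D8, from 1 to 2 for D10 vs D7 (2 without D7 replicate 3, when Rxrg is added) and from 3 to 4 for D28 vs D10, those apart between D28 and D7 from 5 to 7, and the pathway genes called from 6 to 10, 5 to 9, 14 to 16 and 14 to 16. Median-of-ratios scaling shifted the D10 libraries by -0.059 and the D28 libraries by 0.071 in the median, and Rxrg then passed for D28 vs D10 (1.17, limma adjusted p = 0.0346). The log2 fold change of Vdr ranged over all settings from -1.79 to -1.53 for D8 vs D7 and from 3.55 to 3.81 for D28 vs D10, that of Rxra for D28 vs D10 from 1.11 to 1.27, and that of S100g from 3.54 to 6.63. The D28 minus D7 difference of Cyp24a1 is set by the treatment of zeros and was 16.8 with a pseudocount of 0.1, 10.5 with 8 and 10.7 with low values raised to the floor, and that of S100g was 3.20 with a pseudocount of 8. Where a mean of 3 or more on the log2 scale was required, Cyp27b1 and Trpv6 were not tested.

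Libraries that share a replicate number showed no common deviations over the tested genes. With 3 libraries per time point, and many genes at low counts, this cannot exclude that they were paired. Of 18 same-numbered pairs 0 had deviations correlated above 0.1 (r from -0.058 to 0.066), and 3 of 12 libraries correlated best with their own number. With a replicate block the vitamin D genes called were 1, 1, 1 and 3 and the pathway genes 8, 7, 14 and 16, and no call of a vitamin D gene changed.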

Other observations

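Cyp24a1 belonged to a small group of genes at the floor until D10 and clearly expressed at D28. Only 8 of the 28244 genes had at most 3 reads in each of the 9 earlier libraries and more than 60 reads in each D28 library, a rule set after the values were seen. Cyp24a1 had the highest D28 mean of them (13.53 ± 0.61, SD, n = 3), followed by Ppy (10.4 ± 0.22), Apoc3 (8.79 ± 0.13), Bhmt (8.65 ± 0.48), Cckar (7.25 ± 0.62), Serpina1d (7.21 ± 1.30), Orm3 (6.61 ± 0.36) and Cdh18 (6.21 ± 0.88). Ppy encodes a pancreatic hormone, and Apoc3, Bhmt, Serpina1d and Orm3 are known from the liver. Serpina1d and Orm3 belong to families of near-identical genes, so their levels are uncertain.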
